A study of Homo sapiens with 12 samples.

Results

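The genes of the azurophil granule proteins are described here across HL60 cells given ATRA, a CDK4/6 inhibitor or both. The 10 members, MPO, ELANE, PRTN3, AZU1, CTSG, PRSS57, LYZ, RNASE2, RNASE3 and SRGN, were taken by gene symbol from a deposited table of raw counts for 59251 genes. Of the 10, 7 passed the filter on low counts and were among the 13318 genes tested, and the other 3 were listed at 0 counts in all 12 libraries. HL60 is a human acute myeloid leukemia cell line. The cells were exposed for 48 h to 1 µM all-trans retinoic acid (ATRA), to 1 µM palbociclib (CDK4/6i), or to both drugs at these doses (CDK4/6i+ATRA), and non-treated cells were the control. The labels name no vehicle for the non-treated cells, and all groups came from this single line. RNA-Seq covered 3 libraries per group, labelled as biological replicates. The study's account of its gene set analysis speaks of 3 independent experiments, without saying which libraries came from which, and p-values measure the spread between these libraries.

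Azurophil granules, also called primary granules, are made at the promyelocyte stage of myeloid development and carry the enzymes with which neutrophils kill ingested microbes. MPO makes hypochlorous acid, the elastase family of serine proteases (ELANE, PRTN3, CTSG and PRSS57, with the inactive relative AZU1) cleaves proteins, LYZ cleaves bacterial cell walls, and the proteoglycan SRGN holds these basic proteins in the granule. RNASE2 and RNASE3 are ribonucleases best known from eosinophil granules. Transcription of MPO and of the elastase family is highest in promyelocytes and is shut off as the cells mature, whereas LYZ and SRGN are also expressed in mature myeloid cells, and ATRA is known to drive the maturation of HL60 cells.

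Total counts lay between 12230923 and 18679544 per library. Those of CDK4/6i+ATRA (12230923 to 14415276) lay below every other library. A gene with 3 counts stood at 0.155 to 0.275 CPM after TMM scaling, and levels below this were not detectable at this depth. Reads were not marked by molecule, so this floor and the counting intervals below cover counting error alone. The cells carried myeloid genes in every group, such as CD33 with means of 77.8 to 118 CPM, while the erythroid marker HBB and the epithelial marker EPCAM were listed at 0 counts in all 12 libraries. Among megakaryocyte markers PF4 was listed at 0 and ITGA2B had means of 2.00 to 8.92 CPM. Among lymphoid markers MS4A1 was listed at 0, CD79A had means of 14.2 to 23.6 CPM, and the summed level of the 8 genes lay between 13.6 and 27.3 CPM. The ATRA target CD38 rose from 0.179 CPM in non-treated cells to 399 CPM with ATRA and 405 CPM with CDK4/6i+ATRA, with 0.188 CPM with CDK4/6i.

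ELANE (neutrophil elastase), PRTN3 (proteinase 3) and AZU1 (azurocidin) lie side by side on chromosome 19 of hg38, at chr19:852303-856243, chr19:840999-848175 and chr19:827837-832018, all on the plus strand and each with 5 exons. Each was listed at 0 counts in every non-treated, ATRA, CDK4/6i and CDK4/6i+ATRA library. The deposited annotation lists all 3 a second time, on an alternate contig of chromosome 19. The exons of ELANE (909 bases) and AZU1 (907 bases) were 100% identical between the chromosome and the contig. PRTN3 had 1036 exon bases on the chromosome and 987 on the contig, and all 987 were identical to the chromosome. The 95.3% identity over 1036 aligned bases thus reflects bases absent from the contig exons. CFD, the next gene on the same contig, was 100% identical over 1212 bases and had 1 count in total, whereas MED16, with 1631 of its 3056 exon bases on the contig, had 8532 counts. Among protein-coding genes, 53.6% of the 966 whose deposited length was at least 2 times the primary length had no count in any library, as did 25.3% of the 620 on a second contig with a smaller length ratio and 23.1% of the 17988 listed on a primary chromosome alone. ELANE and AZU1 belong to the first class and PRTN3, with 2023 against 1036 bases, to the second. The part of the duplicate listing in these zeros was not tested, so the 3 genes are given as listed at 0 and no fold was computed for them.

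Levels were compared between genes as RPKM, computed from TMM-scaled counts and the exon length of each gene. In non-treated cells, MPO (2024 ± 52.0 RPKM, SD, n = 3) and SRGN (2018 ± 39.6 RPKM) led and their libraries overlapped, followed by RNASE2 (130.2 ± 7.88 RPKM), PRSS57 (30.1 ± 1.34 RPKM), LYZ (16.2 ± 1.08 RPKM), CTSG (14.6 ± 2.53 RPKM) and RNASE3 (7.72 ± 0.922 RPKM). LYZ and CTSG overlapped in that order, and the other neighbours did not. With CDK4/6i+ATRA the order was SRGN (2151 ± 86.2 RPKM), LYZ (27.0 ± 2.15 RPKM), MPO (8.68 ± 1.60 RPKM), PRSS57 (4.18 ± 1.16 RPKM), RNASE2 (1.78 ± 0.171 RPKM), CTSG (0.667 ± 0.164 RPKM) and RNASE3 (0.154 ± 0.171 RPKM), with no overlap between neighbours.

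Together the members took 0.977% ± 0.013 (SD, n = 3) of all counts in non-treated cells. In this and the shares below, ELANE, PRTN3 and AZU1 entered at 0 counts, so any of their reads left uncounted are missing. The share was 0.222% ± 0.0069 in the ATRA group, 0.853% ± 0.00373 under CDK4/6i and 0.258% ± 0.00262 under both drugs. MPO alone made up 0.675% in non-treated cells and 0.00241% with CDK4/6i+ATRA, while SRGN made up 0.284% and 0.252%. In the plot of library shares the ATRA and CDK4/6i+ATRA libraries are mostly SRGN. By counts, MPO ranked between place 3 and place 4 among all genes in the non-treated libraries and between 4918 and 5710 in the CDK4/6i+ATRA libraries.

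**Figure D1:**
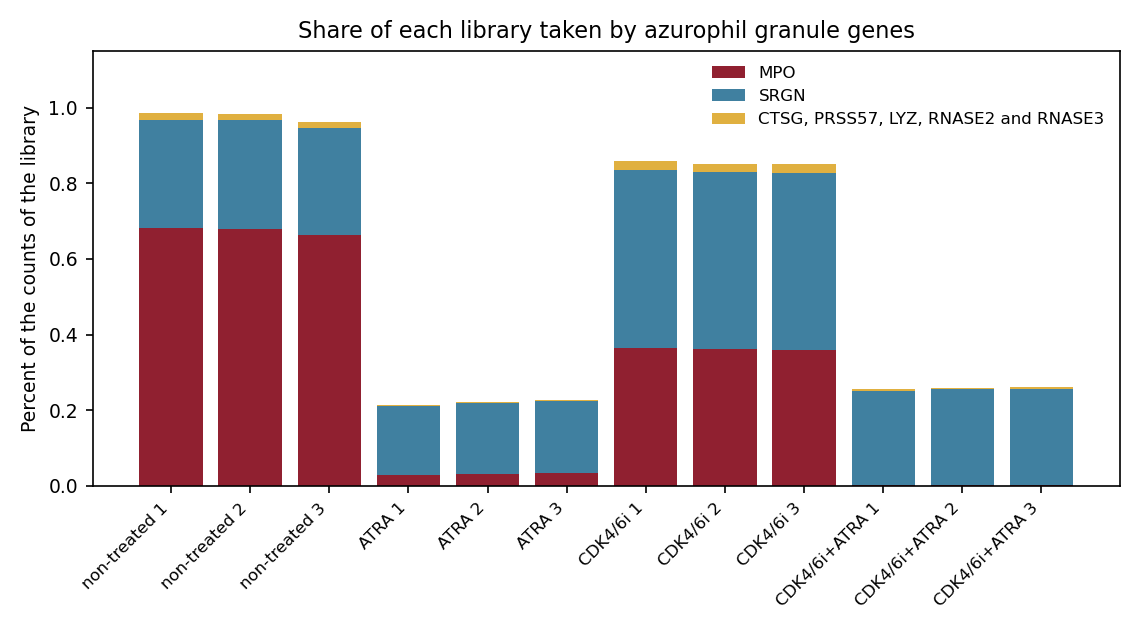
Percent of the counts of each library (vertical axis) taken by MPO, by SRGN and by CTSG, PRSS57, LYZ, RNASE2 and RNASE3 together, as stacked bars for the 12 libraries. The MPO part falls from between 0.664% and 0.683% in the non-treated libraries to between 0.00210% and 0.00284% in the CDK4/6i+ATRA libraries, where SRGN fills nearly the whole bar.

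MPO (chr17:58269855-58280935, minus strand, 12 exons) fell with each drug and fell furthest with both. It stood at 6658, 6543 and 6329 CPM in the non-treated libraries, at 268, 288 and 322 CPM with ATRA, at 3539, 3447 and 3410 CPM with CDK4/6i, and at 25.5, 24.5 and 33.8 CPM with CDK4/6i+ATRA. All 4 groups were separate. ATRA lowered MPO by 22.2-fold (log2 -4.48, SE 0.062) and CDK4/6i lowered it by 1.88-fold (log2 -0.91, SE 0.0535), with adjusted p-values of 4.69e-47 and 2.77e-20 (quasi-likelihood test of edgeR, adjusted by Benjamini-Hochberg). With CDK4/6i+ATRA it was 232-fold lower than in non-treated cells (log2 -7.86, SE 0.0778, adjusted p = 9.4e-54), which placed it 11 from the lowest of the 13318 genes tested. In bulk RNA, fewer cells that carry a transcript and less of it per cell cannot be told apart, and this holds for every member.

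The other peroxidase genes lie beside MPO on chromosome 17 and also had lower levels with ATRA. LPO, lactoperoxidase, at chr17:58238584-58268518 on the plus strand, ends 1336 bases from the end of MPO on the opposite strand. Its mean was 6.78 CPM in non-treated cells, 0.685 CPM with ATRA, 5.59 CPM with CDK4/6i and 0.0305 CPM with CDK4/6i+ATRA, where it rested on 1 count over the 3 libraries. EPX, eosinophil peroxidase, 64680 bases from MPO, stood at 12.3, 0.790, 16.9 and 0.345 CPM in the same order. Both fell with ATRA, LPO by a log2 change of -3.27 and EPX by one of -3.94, with adjusted p-values of 4.74e-16 and 4.7e-24. CDK4/6i raised EPX (log2 0.45, adjusted p = 0.000441), and for LPO the change of -0.29 missed the threshold (adjusted p = 0.171). The libraries were directional, but whether reads were counted by strand is not given in the sources used here, so reads of MPO and LPO at their facing ends may not have been told apart and the LPO values are uncertain.

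**Figure D2:**
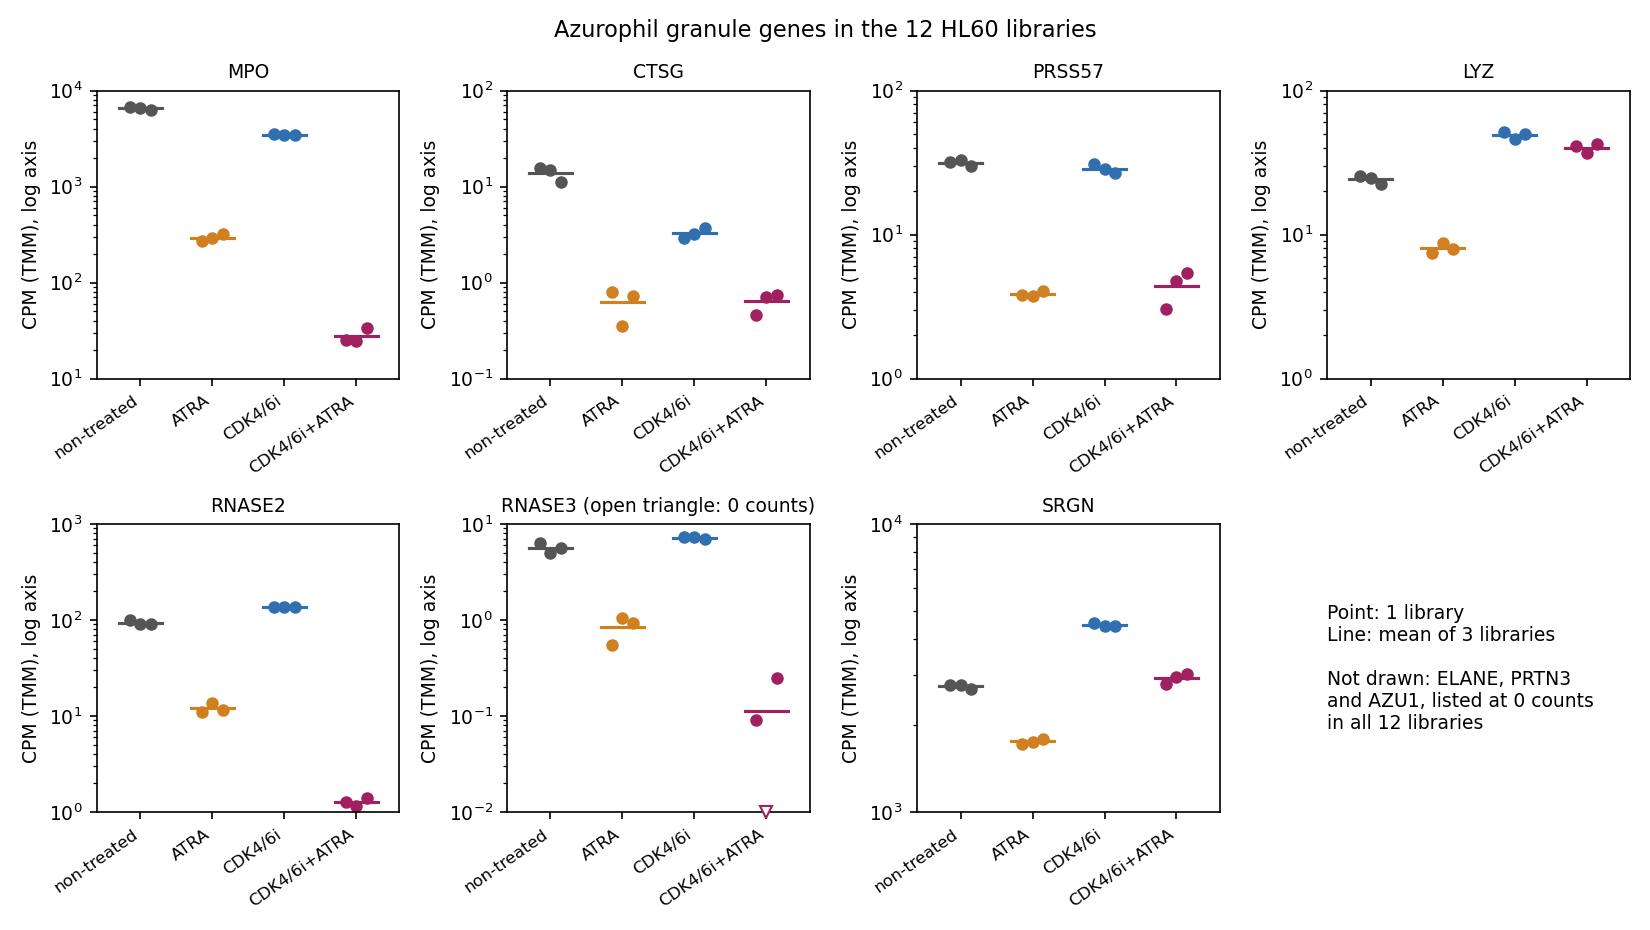
TMM-scaled CPM on a log axis (vertical) of the 7 members with counts, in each of the 12 libraries by group (horizontal). Points are libraries and lines are means of 3 libraries. MPO, RNASE2 and RNASE3 reach their lowest levels with CDK4/6i+ATRA, CTSG and PRSS57 lie at like levels with ATRA and CDK4/6i+ATRA, and LYZ and SRGN are higher with CDK4/6i+ATRA than with ATRA.

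Among the serine proteases, CTSG (cathepsin G) and PRSS57 (neutrophil serine protease 4) had counts. RefSeq promoters of GRCh38.p14 were matched for 6 of the 10 members, and not for MPO, ELANE, LYZ and SRGN. The 250 bases before the start are printed for the 4 matched members with counts, so that letters that the regulators of these genes are known to bind can be seen. Capitals mark matches, on either strand, to MYB (AACNG), C/EBP (TTNCNNAA), RUNX (TGNGGT) and PU.1 (GAGGAA). The windows of CTSG, at chr14:24576251-24576500, and of PRSS57, at chr19:695453-695702, are both on the minus strand and are given 5′ to 3′ on that strand.
CTSG: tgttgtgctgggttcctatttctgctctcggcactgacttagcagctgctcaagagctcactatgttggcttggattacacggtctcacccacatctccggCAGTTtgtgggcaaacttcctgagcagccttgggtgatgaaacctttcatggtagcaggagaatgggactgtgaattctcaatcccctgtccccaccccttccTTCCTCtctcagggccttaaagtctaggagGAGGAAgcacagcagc
PRSS57: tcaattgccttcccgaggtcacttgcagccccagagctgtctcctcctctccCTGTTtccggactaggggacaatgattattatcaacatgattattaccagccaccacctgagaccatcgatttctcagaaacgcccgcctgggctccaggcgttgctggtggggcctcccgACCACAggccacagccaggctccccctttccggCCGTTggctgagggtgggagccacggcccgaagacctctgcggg
The CTSG window held 1 MYB match and 2 PU.1 matches, and the PRSS57 window 2 MYB matches and 1 RUNX match. Of all 35116 promoters cut to the same 250 bases, 70.6% held a MYB match, 33.2% a C/EBP match, 37.7% a RUNX match and 23.6% a PU.1 match. These matches describe the letters of the window.

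CTSG (chr14:24573518-24576250, minus strand, 5 exons) fell with each drug, and with both drugs its libraries overlapped those of ATRA. Its level was 15.7, 14.9 and 11.2 CPM in the non-treated libraries, 0.800, 0.349 and 0.717 CPM with ATRA, 2.90, 3.17 and 3.68 CPM with CDK4/6i, and 0.458, 0.712 and 0.743 CPM with CDK4/6i+ATRA. These last were 5 to 9 counts per library, and the ATRA libraries held 6 to 13. ATRA lowered CTSG by 22.1-fold (log2 -4.47, SE 0.222, adjusted p = 1.48e-23) and CDK4/6i by 4.28-fold (log2 -2.10, SE 0.163, adjusted p = 7.89e-16). CTSG with CDK4/6i+ATRA was 21.4-fold lower than in non-treated cells (adjusted p = 5.57e-22). Between CDK4/6i+ATRA and ATRA the log2 difference was 0.05 with a 95% interval of -0.83 to 0.93 (adjusted p = 0.929). Of the 5 genes within 100000 bases, GZMB, GZMH and CMA1 belong to the same protease cluster. GZMB and GZMH were listed at 0 counts and CMA1 had 2 in total.

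PRSS57 (chr19:685546-695452, minus strand, 5 exons) fell with ATRA, with or without CDK4/6i. It was at 31.6, 32.8 and 30.0 CPM in the non-treated libraries, at 3.82, 3.73 and 4.03 CPM with ATRA, at 30.7, 28.5 and 26.8 CPM with CDK4/6i, and at 3.02, 4.72 and 5.36 CPM with CDK4/6i+ATRA. Non-treated and CDK4/6i libraries overlapped, as did ATRA and CDK4/6i+ATRA libraries. The fall with ATRA was 8.13-fold (log2 -3.02, SE 0.111, adjusted p = 7.07e-29) and that with CDK4/6i+ATRA was 7.13-fold (log2 -2.83, SE 0.12, adjusted p = 8.33e-27). For CDK4/6i against non-treated cells the log2 difference was -0.13, with an interval of -0.29 to 0.03 (adjusted p = 0.163). CDK4/6i+ATRA differed from ATRA by 0.19, with an interval of -0.16 to 0.53 (adjusted p = 0.331).

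RNASE2 (eosinophil-derived neurotoxin) and RNASE3 (eosinophil cationic protein) are neighbours on the plus strand of chromosome 14, 63138 bases apart, at chr14:20955487-20956436 and chr14:20891385-20892348, with 2 exons each. Their exons were 86.7% identical, and the pseudogene RNASE2CP between them shares a run of 112 identical bases with RNASE2. Reads from these 3 could have been exchanged in counting, so their separate values are uncertain. Their promoter windows, of the 4 printed, are chr14:20955237-20955486 and chr14:20891135-20891384.
RNASE2: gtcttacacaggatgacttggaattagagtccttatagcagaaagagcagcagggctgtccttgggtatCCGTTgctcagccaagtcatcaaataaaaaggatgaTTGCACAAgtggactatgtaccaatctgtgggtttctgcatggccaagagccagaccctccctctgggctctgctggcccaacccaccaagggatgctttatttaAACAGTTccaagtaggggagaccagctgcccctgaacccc
RNASE3: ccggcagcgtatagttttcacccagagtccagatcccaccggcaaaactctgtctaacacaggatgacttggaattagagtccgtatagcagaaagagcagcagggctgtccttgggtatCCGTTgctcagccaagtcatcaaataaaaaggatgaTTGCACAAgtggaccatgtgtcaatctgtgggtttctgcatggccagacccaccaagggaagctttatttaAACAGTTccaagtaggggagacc
Each window held 3 MYB matches, of which 2 on opposite strands overlap near the start, and 1 C/EBP match. The C/EBP match TTGCACAA began 145 bases before the start of RNASE2 and 94 bases before that of RNASE3. The windows were 64.5% identical over 301 aligned columns, with a run of 86 identical bases, whereas CTSG and PRSS57 were 50.4% identical with a longest run of 6.

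RNASE2 rose with CDK4/6i alone, and both ribonucleases were lowest with both drugs. RNASE2 was at 100.3, 91.1 and 89.9 CPM in the non-treated libraries, at 10.96, 13.6 and 11.4 CPM with ATRA, at 137, 136 and 136 CPM with CDK4/6i, and at 1.28, 1.16 and 1.40 CPM with CDK4/6i+ATRA. No library of one group overlapped another group. ATRA lowered RNASE2 by 7.80-fold (log2 -2.96, SE 0.0657, adjusted p = 3.22e-38) and CDK4/6i raised it by 1.45-fold (log2 0.54, SE 0.0475, adjusted p = 4.82e-14). With CDK4/6i+ATRA it was 72.5-fold below non-treated cells (log2 -6.18, SE 0.112, adjusted p = 1.37e-42). CDK4/6i thus went with a higher level in the absence of ATRA, and with a 9.30-fold lower level in its presence (log2 -3.22, adjusted p = 1.19e-22).

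RNASE3 had few reads. Its counts were 106, 80 and 100 in the non-treated libraries, 9, 18 and 17 with ATRA, 143, 119 and 119 with CDK4/6i, and 1, 0 and 3 with CDK4/6i+ATRA. The CDK4/6i+ATRA libraries lay at or below the floor of 3 counts. ATRA lowered RNASE3 by 6.60-fold (log2 -2.72, SE 0.238, adjusted p = 2.08e-14). For CDK4/6i the log2 difference was 0.35, with an interval of 0.01 to 0.68 before adjustment (adjusted p = 0.0702), although the CDK4/6i libraries (6.96 to 7.41 CPM) all lay above the non-treated libraries (5.01 to 6.36 CPM). Scaled by TMM, the 286 counts of non-treated cells against 4 with CDK4/6i+ATRA were a ratio of 48.6, with a 95% counting interval of 18.8 to 180. The fitted log2 change was -5.51 (adjusted p = 1.69e-17), and without CDK4/6i+ATRA replicate 3 it was -6.75. The pseudogene RNASE2CP went from 1.26 CPM in non-treated cells to 0.355 CPM with ATRA, 0.830 CPM with CDK4/6i and 0.0890 CPM with CDK4/6i+ATRA.

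Markers of eosinophils, basophils and mast cells are given beside the ribonucleases. Of these 10, 8 were tested, of which 7 were lower and 1 higher under both drugs than in non-treated cells, against 40.7% and 41.0% of all tested genes. The summed level of the 10 lay between 6210 and 6460 CPM in non-treated libraries, 600 and 664 CPM with ATRA, 8210 and 8440 CPM with CDK4/6i, and 414 and 484 CPM with CDK4/6i+ATRA. PRG2, the major basic protein of eosinophils, made up most of it, with means of 5851, 286, 7197 and 64.6 CPM in that order. CLC, the Charcot-Leyden crystal protein, stood at 475, 327, 1102 and 363 CPM, and the receptor CCR3 rose to 14.3 CPM with CDK4/6i+ATRA from 0.138 CPM, a level below the floor of 3 counts per library. The part of these cells or programs in the levels of RNASE2 and RNASE3 was not tested.

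LYZ (chr12:69348381-69354234, plus strand, 4 exons) fell with ATRA and rose with CDK4/6i, with or without ATRA. The non-treated libraries held 25.5, 24.8 and 22.4 CPM, the ATRA libraries 7.45, 8.74 and 7.89 CPM, the CDK4/6i libraries 51.9, 46.2 and 49.7 CPM, and the CDK4/6i+ATRA libraries 41.2, 36.6 and 42.8 CPM. None of the groups overlapped. The fall with ATRA was 3.01-fold (log2 -1.59, SE 0.0926, adjusted p = 7.95e-21), and the rise with CDK4/6i was 2.04-fold (log2 1.03, SE 0.0701, adjusted p = 7.07e-18). With CDK4/6i+ATRA it was 1.66-fold above non-treated cells (log2 0.73, SE 0.0756, adjusted p = 2.1e-12) and also above ATRA (log2 2.32, SE 0.0901, adjusted p = 4.98e-28).

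SRGN (chr10:69087603-69104811, plus strand, 4 exons) changed least of the 7 with ATRA. It was at 2765, 2770 and 2675 CPM in the non-treated libraries, at 1721, 1757 and 1796 CPM with ATRA, at 4530, 4429 and 4437 CPM with CDK4/6i, and at 2787, 2952 and 3013 CPM with CDK4/6i+ATRA. The 4 groups did not overlap, although the lowest CDK4/6i+ATRA library was close to the highest non-treated one. ATRA lowered SRGN by 1.56-fold (log2 -0.64, SE 0.0434, adjusted p = 2.63e-18) and CDK4/6i raised it by 1.63-fold (log2 0.71, SE 0.0433, adjusted p = 1.32e-19). Under both drugs the log2 change from non-treated cells was 0.09 (SE 0.0432, adjusted p = 0.0467) with TMM, and it turned to -0.17 (adjusted p = 1.36e-06) when scaled by library size alone. That scaling moved the median log2 change of all tested genes in this comparison from 0.018 to -0.25, so SRGN lay slightly above the median of all genes under both. The SRGN call was lost when any single library except CDK4/6i+ATRA replicate 1 was left out (adjusted p of 0.0598 to 0.188 for SRGN).

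Across the comparisons with non-treated cells, ATRA lowered all 7 tested members, and CDK4/6i split them. Of all tested genes, 35.5% were lower and 32.1% higher with ATRA, with a median log2 change of -0.028, against 7 of 7 members lower and a median of -2.96. With CDK4/6i, LYZ, SRGN and RNASE2 were higher (3 of 7, against 28.3% of all tested genes) and MPO and CTSG lower (2 of 7, against 27.9%), and PRSS57 and RNASE3 missed the threshold. This split was near that of all genes. With CDK4/6i+ATRA, 5 members were lower (MPO, RNASE2, RNASE3, CTSG and PRSS57, against 40.7% of all tested genes) and 2 were higher (LYZ and SRGN, against 41.0%), of which SRGN reversed when scaled by library size alone and was lost in most fits without 1 library. Of all called genes 50.2% were higher in this comparison with TMM and 40.5% with library size alone. The median of the members was -4.42, against 0.018 for all tested genes. An exact permutation test on CPM gave p = 0.1, two-sided, wherever the libraries of 2 groups did not overlap. This is the smallest p that 3 against 3 libraries allow.

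**Figure D3:**
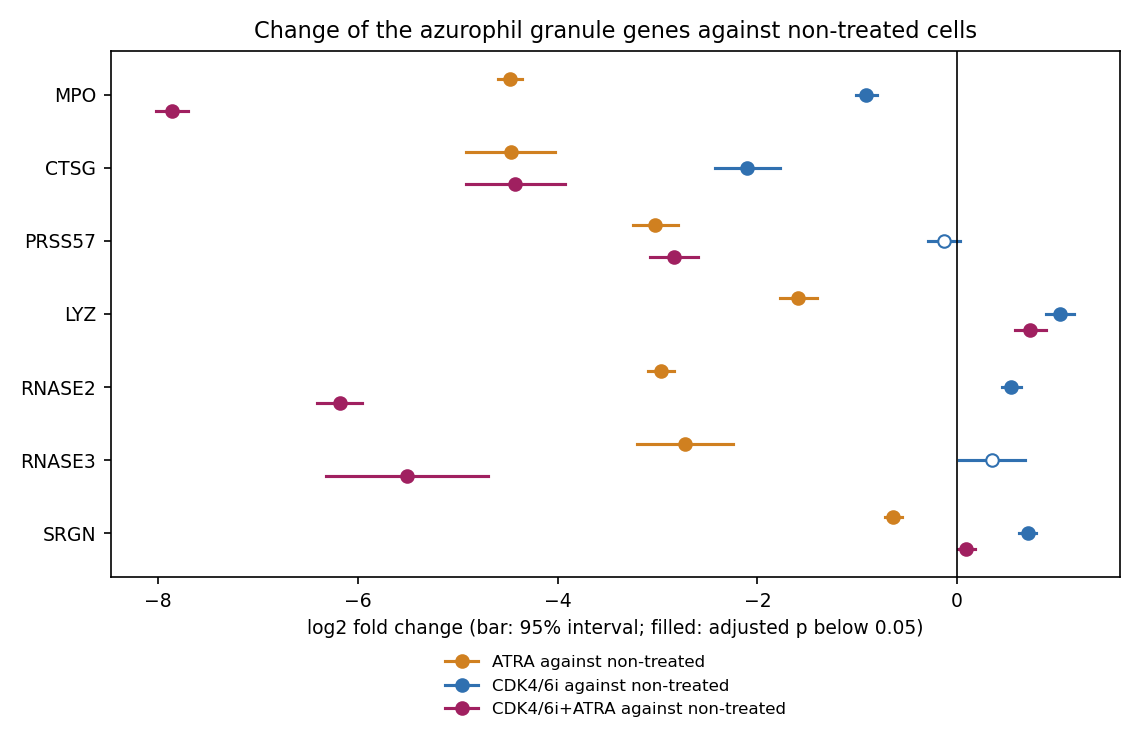
log2 fold change against non-treated cells (horizontal axis) of the 7 tested members (rows) with ATRA, CDK4/6i and CDK4/6i+ATRA. Points are estimates by edgeR, bars are 95% intervals and filled points passed an adjusted p of 0.05. All ATRA points lie left of 0, down to -4.48 for MPO, CDK4/6i points lie between -2.10 for CTSG and 1.03 for LYZ, and with CDK4/6i+ATRA LYZ and SRGN lie right of 0 under TMM scaling.

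The effect of ATRA was then compared without and with CDK4/6i. In the presence of CDK4/6i, ATRA again lowered all 7 tested members, against 39.5% of all tested genes lower and 39.1% higher in CDK4/6i+ATRA against CDK4/6i. The falls were 123-fold for MPO (log2 -6.95), 105-fold for RNASE2 (log2 -6.72), 6.51-fold for PRSS57 and 1.53-fold for SRGN (log2 -0.61), with CTSG at a log2 change of -2.32. LYZ fell by 1.23-fold (log2 -0.30, adjusted p = 0.000155). Of all called genes 49.8% were higher in this comparison, and 36.7% with library size alone. RNASE3, at 381 counts against 4, had a ratio of 61.8 with a counting interval of 23.9 to 228. The fitted log2 change of RNASE3 was -5.86, and -7.09 without CDK4/6i+ATRA replicate 3. The interaction, the log2 effect of ATRA with CDK4/6i minus that without it, tests whether these falls differed from those of ATRA alone.

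It was negative for RNASE2 (-3.76, SE 0.173, adjusted p = 3.93e-24), RNASE3 (-3.13, SE 0.624, adjusted p = 3.12e-05) and MPO (-2.47, SE 0.0913, adjusted p = 7.13e-28), whose falls were larger under CDK4/6i. Without CDK4/6i+ATRA replicate 3 the RNASE3 value was -4.37. It was positive for CTSG (2.15, SE 0.499, adjusted p = 0.000284) and LYZ (1.29, SE 0.117, adjusted p = 1.7e-13), whose falls were smaller. PRSS57 (0.32, interval -0.06 to 0.70, adjusted p = 0.159) and SRGN (0.02, interval -0.10 to 0.15, adjusted p = 0.772) missed the threshold. Of all tested genes, 27.0% had a negative and 24.5% a positive interaction, against 3 and 2 of the 7 members. With library size alone 18.5% of the called interactions were positive and without a filter 37.9%, against 47.5% with TMM. In CDK4/6i+ATRA against ATRA, MPO (10.4-fold), RNASE2 and RNASE3 (log2 -2.79, and -4.03 without CDK4/6i+ATRA replicate 3) were lower (3 of 7, against 32.8% of all tested genes), and LYZ and SRGN (1.66-fold) were higher (2 of 7, against 36.9%). These shares were near those of all genes, of whose calls 53.0% were higher with TMM and 31.6% with library size alone.

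**Figure D4:**
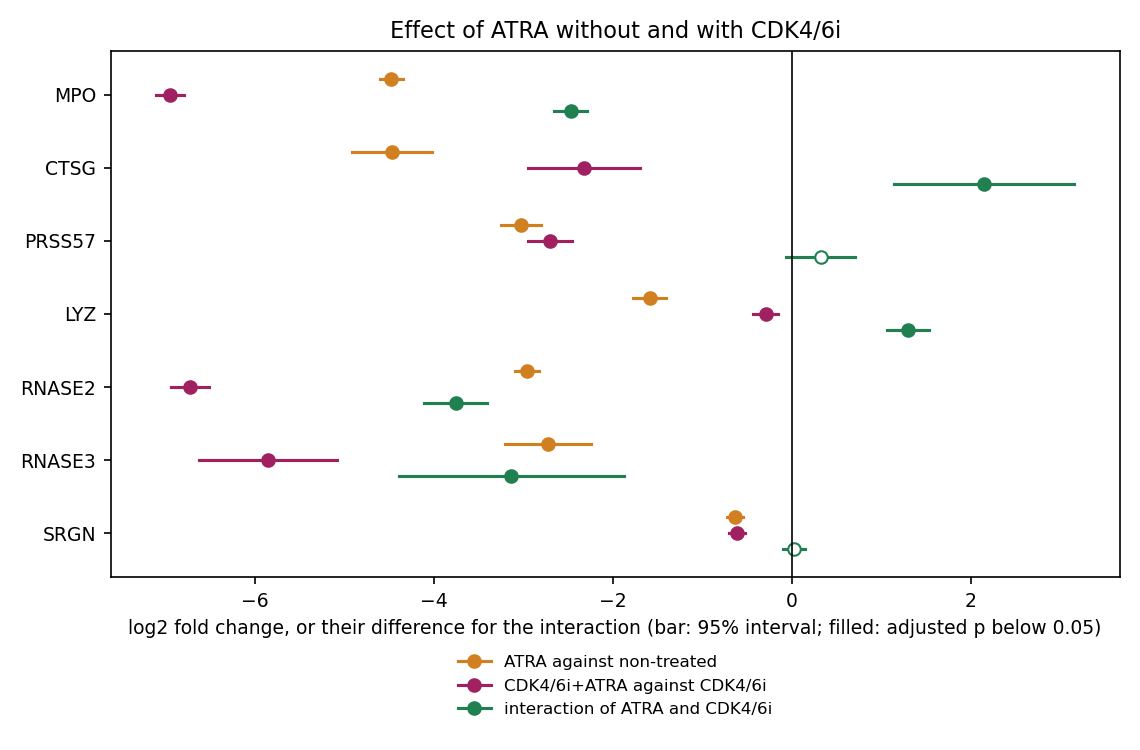
log2 effect of ATRA without CDK4/6i (ATRA against non-treated), with CDK4/6i (CDK4/6i+ATRA against CDK4/6i) and their difference, the interaction (horizontal axis), for the 7 tested members (rows). Bars are 95% intervals and filled points passed an adjusted p of 0.05. The interaction lies left of 0 for MPO, RNASE2 and RNASE3 and right of 0 for CTSG and LYZ, and its interval covers 0 for PRSS57 and SRGN.

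Most other contents of the azurophil granule were higher with CDK4/6i+ATRA. The list held 18 genes, of which 14 were tested, and under both drugs 12 were higher and 2 lower, with a median log2 change of 1.62. For this and the following lists, the shares over all tested genes were 41.0% higher and 40.7% lower under both drugs, 32.1% and 35.5% with ATRA, and 28.3% and 27.9% with CDK4/6i. With ATRA 10 were higher and 3 lower (median 0.49), and with CDK4/6i 11 were higher and 1 lower (median 0.61). CTSD, the aspartic protease cathepsin D, rose from 313 CPM to 2597 CPM with ATRA and 4458 CPM with CDK4/6i+ATRA (log2 3.83). The membrane protein CD68 rose from 2.75 CPM to 31.0 CPM with CDK4/6i+ATRA (log2 3.50) and the fucosidase FUCA1 from 17.9 CPM to 115.6 CPM (log2 2.697). ARSB, a lysosomal sulfatase, was lower (log2 -1.03). BPI, which binds bacterial endotoxin, was named after its values were seen. Its means were 46.9 CPM in non-treated cells, 264 CPM with ATRA, 149 CPM with CDK4/6i and 247 CPM with CDK4/6i+ATRA.

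Genes that process, fold or sort azurophil proteins were mixed under both drugs and mostly lower with ATRA. All 18 were tested, and under both drugs 9 were higher and 8 lower, with a median of 0.09. With ATRA 4 were higher and 13 lower (median -0.22), and with CDK4/6i 9 were higher and 1 lower (median 0.10). The chaperones CALR and CANX, which fold the MPO precursor, fell by 2.47 and 1.59 on the log2 scale, and their log2 changes with ATRA alone were -1.87 and -0.91. CHST12, a sulfotransferase of chondroitin sulfate, the chain type carried by SRGN, fell by 2.47. VPS45 (log2 1.07), CSGALNACT2 (log2 0.95) and CHST11 (log2 0.59) rose. CTSC, which removes the propeptide of the granule serine proteases, was named after its values were seen and stood at 382 CPM in non-treated cells and 409 CPM with CDK4/6i+ATRA (log2 0.10, adjusted p = 0.0214).

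Inhibitors of the granule proteases moved in both directions. Of 12, 7 were tested, and under both drugs 5 were higher and 2 lower (median 1.36), with 41.0% of all tested genes higher. SERPINB1, a cytosolic inhibitor of elastase, cathepsin G and proteinase 3, rose from 56.6 CPM to 330.3 CPM with ATRA, 148 CPM with CDK4/6i and 753 CPM with both (log2 3.74). SERPINA1, which encodes alpha-1-antitrypsin, rose from 2.00 CPM to 52.5 CPM with both (log2 4.71) and SERPINB6 from 8.60 CPM to 22.5 CPM (log2 1.39). SERPINB10 went from 92.5 CPM to 4.17 CPM with ATRA, 178 CPM with CDK4/6i and 6.26 CPM with both, and CST7, an inhibitor of cathepsin C, from 262 CPM to 38.9, 386 and 32.9 CPM. With ATRA 4 were higher and 3 lower, and with CDK4/6i all 7 tested were higher (median 0.94).

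Transcription factors known for azurophil genes moved in both directions. Of 12, 10 were tested, and with CDK4/6i+ATRA 6 were higher and 4 lower against non-treated cells (median 0.40). MYB, an activator of the early granule genes, had means of 340.3 CPM in non-treated cells, 73.6 CPM with ATRA, 369.8 CPM with CDK4/6i and 11.2 CPM with CDK4/6i+ATRA (log2 -4.92), and its interaction was -2.83 (adjusted p = 2.37e-32). CEBPA, the C/EBP of early myeloid cells, fell to 145 CPM with ATRA, 226 CPM with CDK4/6i and 76.3 CPM with both, from 377 CPM. GFI1, a repressor of myeloid genes, stood at 297, 269.6, 249.6 and 101 CPM in the same order of groups. CEBPB (log2 3.14), CEBPD (log2 2.01) and SPI1, which encodes PU.1 (log2 1.503), rose with CDK4/6i+ATRA.

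Genes of the later secondary and tertiary granules were low in all groups. Of 16, 9 were tested, and under both drugs 7 were higher and 2 lower (median 3.22, unchanged with genes at 0 set to their bound). Most of those higher were near or below the floor of 3 counts per library in non-treated cells. They passed the filter through groups where they were higher, so this count and median follow in part from the filter. The summed level of the 16 rose from between 10.9 and 11.9 CPM in non-treated libraries to between 36.0 and 38.8 CPM with CDK4/6i+ATRA. CHI3L1 rose by 1.35 and FCN1 fell by 0.88 on the log2 scale. The collagenase MMP8, outside the rule for naming and chosen after its values were seen, had no count in non-treated cells and a mean of 9.34 CPM with CDK4/6i+ATRA, at least 157-fold higher against a floor of 3 counts over the group. LTF, which encodes lactoferrin, the main protein of secondary granules, had 4 counts in total, and LCN2 had 1.

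**Figure D5:**
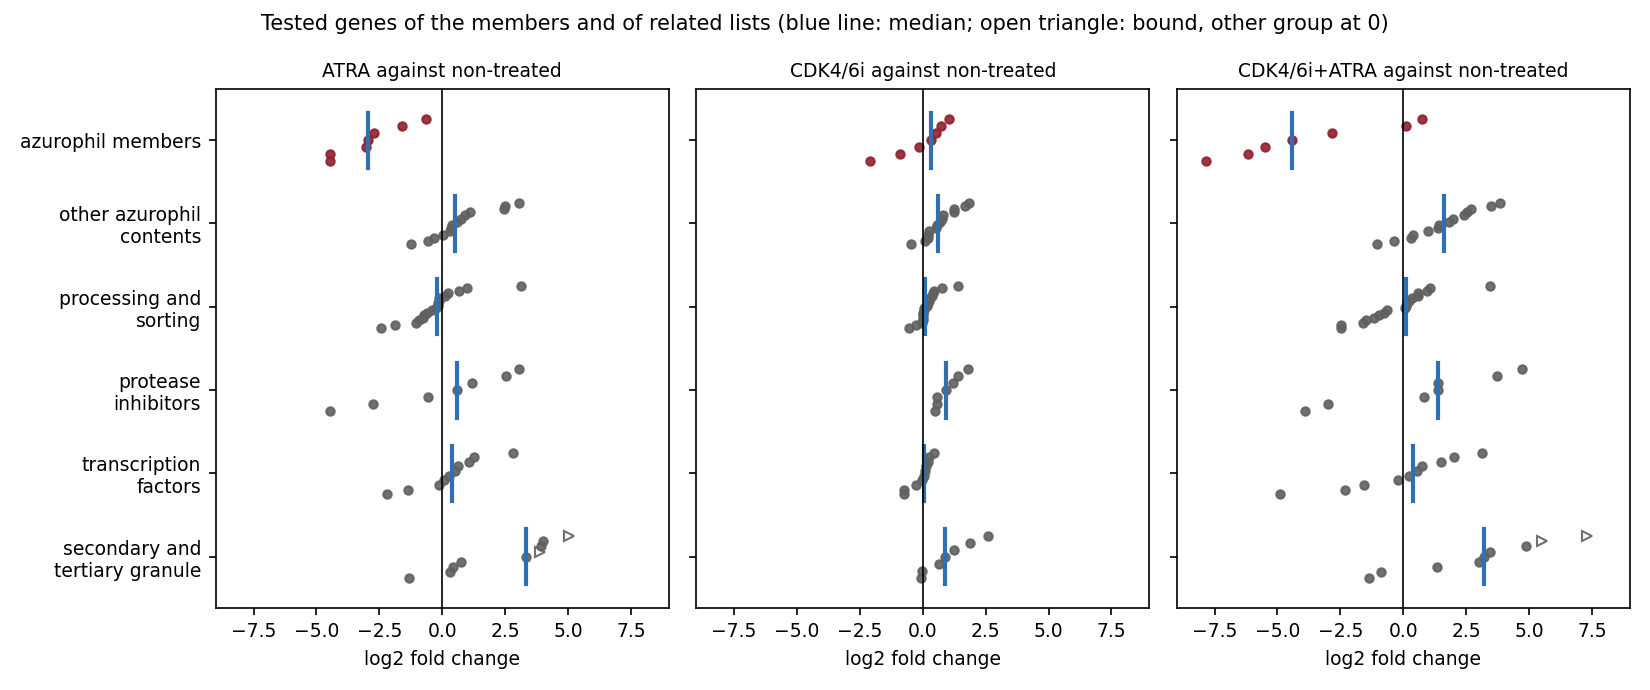
log2 fold change against non-treated cells (horizontal axes) of the tested genes of the azurophil members and of 5 related lists (rows), with ATRA, CDK4/6i and CDK4/6i+ATRA in the 3 panels. Points are genes, blue lines are medians and open triangles are bounds for genes at 0 in non-treated cells. Of the lists drawn, the members have the lowest median with ATRA (-2.96) and CDK4/6i+ATRA (-4.42). The 3 tested relatives EPX, LPO and RNASE6, which are not drawn, had medians of -3.27 and -5.10, and the other azurophil contents a median of 1.62 with CDK4/6i+ATRA.

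Likeness between genes was the Euclidean distance between the log2 changes with ATRA, CDK4/6i and CDK4/6i+ATRA, which share the non-treated libraries, over 9893 genes with at least 5 CPM in 1 group. RNASE2 and RNASE3 were the nearest pair of members (distance 0.739), then LYZ and SRGN (1.19), and MPO and LYZ were the farthest (9.27). The first of these rests on the 4 counts of RNASE3 with CDK4/6i+ATRA, and reads of the pair may have been exchanged. Without CDK4/6i+ATRA replicate 2, a fit added after the data were seen, it was 1.19, beside 1.23 for LYZ and SRGN. Outside the members, MPO was nearest to LPO (1.40), MZB1 (1.48) and MTARC1 (1.78), which had 1, 4 and 0 counts in all with CDK4/6i+ATRA, so these distances depend on fitted values near the floor, and the LPO values are uncertain as given above. CTSG was nearest to CA2 (1.62), ZBTB16 (1.79) and GPT2 (1.91). ZBTB16 had 8 counts in all with ATRA and 10 with CDK4/6i+ATRA, and CTSG had 5 to 13 per library in these groups. PRSS57 was nearest to SERINC5 (0.404), RGS16 (0.453) and ADAMTS17 (0.569). GPR183 (0.473), LOC105375593 (0.744, with 2 counts under both drugs) and UNC5C (0.789) were nearest to RNASE2. For RNASE3 these were PRRT4 (0.290), STEAP3 (0.413) and PYCR1 (0.453), distances that rest on the same 4 counts, since the RNASE3 change was -5.51 with all libraries and -4.98 or -6.75 without CDK4/6i+ATRA replicate 2 or 3. LYZ was nearest to CHST11 (0.637), PPFIA3 (0.793) and ST6GALNAC4 (0.813), and SRGN to POMGNT1 (0.0952), RETSAT (0.139) and SIDT2 (0.155).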

How the data were processed

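RNA was measured in 12 HL60 libraries (4 groups of 3). The authors trimmed the reads with Trimmomatic (0.33) and aligned them with STAR (2.7.11a) to hg38, versions as in the submitters' processing notes, with gene models from NCBI RefSeq, and deposited raw counts per gene as whole numbers without normalization. The paper names RSEM for the counts, whereas the deposited columns have the layout of featureCounts. How reads with several positions were counted is not given in the sources used here. Groups were taken from the titles.

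Counts were filtered with filterByExpr on the 4 groups, scaled by TMM and tested with the quasi-likelihood F test of edgeR 4.0.16 (R 4.3.3) in a model of the 4 groups with 8 residual degrees of freedom, with Benjamini-Hochberg adjustment over 13318 genes. Adjusted p-values under 0.05 were called. Biological variation between replicates, as edgeR's common coefficient, was 3.70%. Replicates within groups differed beyond sampling noise (chi-square per degree of freedom 1.81 to 6.22). Counts of 3 set the floor, and totals of 12230923 to 18679544 per library set the precision. Alternatives were scaling by DESeq2 size factors or by library size only, a minimum of 10 counts per library, no filter, DESeq2 1.42.0, a replicate block, only the groups compared, and leaving out each library.

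Members and lists were chosen with earlier results of these data known. The lists were compiled from general knowledge. Of each list, the genes named are the up to 3 with the largest rise and fall with CDK4/6i+ATRA among called genes with a mean of at least 5 CPM, with all members, their neighbours within 100000 bases and the 3 genes nearest to each member. A gene that this rule names is not reported here. Exact tests used scipy 1.17.1, and figures matplotlib 3.10.9.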

Additional observations from a re-analysis of the deposited data

Results flagged for a closer look

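The effect of ATRA differed between cells with and without CDK4/6i for 5 of the 7 tested members, by the interaction term of edgeR's quasi-likelihood test. Of all tested genes, 24.5% had a positive and 27.0% a negative interaction past the same threshold. The differences on the log2 scale were -2.47 for MPO, 2.15 for CTSG, 1.29 for LYZ, -3.76 for RNASE2 and -3.13 for RNASE3. The CTSG value rests on 5 to 13 counts per library in the ATRA and CDK4/6i+ATRA groups, and the RNASE3 value on 4 counts in all of the CDK4/6i+ATRA libraries. Without CDK4/6i+ATRA replicate 3 the RNASE3 value was -4.37.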

How the results depend on the processing

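All 777 recomputed changes of single members were compared with the values reported. Of these, 751 kept their direction and side of the threshold, 13 lost the threshold, 2 gained it and 11 changed sign. SRGN under both drugs, relative to non-treated cells, was -0.17 with library size alone and -0.017 without a filter. It missed the threshold with the replicate block (0.09, adjusted p = 0.078) and with only the groups compared (0.10, adjusted p = 0.0901). The count of members called higher in that comparison was therefore 1, not 2, with library size alone, no filter, the replicate block or only the groups compared, and 1 to 2 when single libraries were left out, where it stayed at 2 without CDK4/6i+ATRA replicate 1. Changes not called in the reported fit also changed sign. CTSG in CDK4/6i+ATRA against ATRA was -0.26 with library size alone, -0.045 without a filter, -0.24 without ATRA replicate 2, -0.04 without CDK4/6i+ATRA replicate 2 and -0.08 without CDK4/6i+ATRA replicate 3, and lay between -0.24 and 0.24 over all fits without 1 library. PRSS57 in the same comparison was -0.12 with library size alone. The SRGN interaction was -0.29 (adjusted p = 1.07e-07) with library size alone, -0.061 without a filter and -0.000722 without CDK4/6i+ATRA replicate 3, the lowest of the fits without 1 library, whose highest was 0.055.

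Requiring 10 counts in every library removed CTSG and RNASE3 from the test, which left 1 member lower with CDK4/6i, 3 lower with CDK4/6i+ATRA and 1 with a positive interaction. With the members left out of the denominator, their share with CDK4/6i was 0.861%. RNASE3 with CDK4/6i passed with only the groups compared (0.34, adjusted p = 0.032), and the PRSS57 interaction passed without CDK4/6i+ATRA replicate 1 (0.52, adjusted p = 0.021). Same-numbered libraries did not deviate together (correlations -0.0702 to 0.0328 over 18 pairs), so the numbers were not read as pairs, and the replicate block changed no other call among the members. Depth limits CTSG and RNASE3 in the ATRA and CDK4/6i+ATRA groups.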

Other observations

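Around the protease genes of chromosome 19, within 100000 bases of PRSS57 to ELANE, 10 of 23 neighbouring genes were tested. With ATRA 2 were higher and 6 lower against non-treated cells, and with CDK4/6i+ATRA 4 were higher and 6 lower. Of all tested genes 32.1% were higher and 35.5% lower with ATRA, and 41.0% and 40.7% with CDK4/6i+ATRA. PLPPR3, between PRSS57 and AZU1, had means of 37.5 CPM in non-treated cells, 2.47 CPM with ATRA, 23.7 CPM with CDK4/6i and 0.578 CPM with CDK4/6i+ATRA (log2 -5.99 for the last, edgeR adjusted p = 4.11e-33). FSTL3 (log2 -2.06), POLRMT (log2 -1.18) and RNF126 (log2 -1.05) were also lower with CDK4/6i+ATRA, and R3HDM4 was higher (log2 1.18). Around RNASE2 and RNASE3, RNASE2CP (log2 -3.73) and METTL17 (log2 -1.66) were the 2 neighbours tested of 16.

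The alpha-defensin genes of azurophil granules had few or no counts. DEFA1 and DEFA1B were listed at 0 in all libraries, DEFA3 had 18 counts in total and DEFA4 had 27, and all 4 are listed on a second contig in the deposited annotation. Of 16 relatives of the granule enzymes that are not azurophil members, 8 were listed at 0 counts in every library and 3 were tested, EPX, LPO and RNASE6. RNASE6 rose from 0.917 CPM in non-treated cells to 3.17 CPM with CDK4/6i+ATRA (log2 1.79, edgeR adjusted p = 4.11e-07). Monocyte markers were near 0 in non-treated cells, where the summed level of 6 genes lay between 0.125 and 0.600 CPM, and between 12.5 and 16.1 CPM with CDK4/6i+ATRA, with CD14 at 16 counts in total over the 12 libraries. Among the myeloid markers, ITGAM (log2 5.99) and CSF3R (log2 1.58) rose with CDK4/6i+ATRA, and MYC (log2 -3.94) and ANPEP (log2 -0.92) fell. Of the markers of other lineages, ITGA2B rose (log2 2.14). Of the lymphoid markers, CD79A (log2 -0.23) and CD3E (log2 -1.33) fell and CD79B rose to 1.08 CPM from 0.0400 CPM, a level below the floor of 3 counts per library. CD3E and CD79B were chosen after their values were seen. The summed megakaryocyte markers lay between 1.68 and 10.7 CPM and the summed lymphoid markers between 13.6 and 27.3 CPM over all groups, while the summed erythroid and the summed epithelial and fibroblast markers stayed at or below 0.883 and 0.233 CPM.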
